A study of Mus musculus with 10 samples.

Results

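Messenger RNA of 9 genes of serine synthesis and the amino acid stress response was followed in liver and liver tumours of mice with and without the mixed-lineage kinase MLK3. The genes were Phgdh, Psat1, Psph, Atf4, Asns, Trib3, Ddit3, Chac1 and Sesn2, taken by name from a table of 39056 genes, of which 21045 had a count and 15811 were tested. All 9 passed the filter on low counts, Phgdh only through the tumours of wild-type mice. Male C57BL/6 mice were 11 months old at the end, either wild-type (WT) or MLK3-KO (KO, lacking the kinase encoded by Map3k11, which acts upstream of JNK). Tumour-bearing mice had received 1 intraperitoneal dose of diethylnitrosamine (DEN, a DNA-alkylating liver carcinogen, 5 µg per g body weight) when 2 weeks old, and from 1 week later drank 0.05% phenobarbital (PB, a tumour promoter that activates the receptor CAR). Control mice of both genotypes drank plain water. The 10 libraries were 2 of WT liver, 2 of KO liver, 3 of WT tumours and 3 of KO tumours, and the series design calls the replicates biological. Every tumour came from a DEN/PB-treated mouse and every liver from a water-treated one, so tumour and treatment cannot be told apart. The DEN/PB libraries are called tumours after their source label, liver tumour tissue, whereas the extraction protocol speaks of treated liver tissue. How much of each sample was tumour is therefore not known. The knockout is taken from the labels, which do not name the deleted exons or the cells that lack the gene.

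Serine is made from the glycolytic intermediate 3-phosphoglycerate in a short chain of reactions, run by PHGDH, PSAT1 and PSPH in turn, and it feeds glycine, cysteine and folate-bound one-carbon units. The transcription factor ATF4 is translated when the initiation factor eIF2 is phosphorylated, under amino acid shortage, unfolded protein in the endoplasmic reticulum, heme lack or mitochondrial stress, and it turns on genes of amino acid synthesis, uptake and tRNA charging. Asns, Trib3, Ddit3, Chac1 and Sesn2 are classical targets of this integrated stress response, and ATF4 also acts on the serine synthesis genes. In healthy adult liver the serine synthesis enzymes are known to be kept low while diet supplies protein.

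ATF4 binds, as a dimer with C/EBP proteins, a composite element whose core was searched here as TGATGNAA, where N is any base, on both strands. The search covered RefSeq promoter windows of GRCm38.p6, from 250 bases before to 50 bases after each transcript start. A match lay in the windows of 3 of the 9 genes (33.3%), against 1219 of 27025 genes with a window (4.51%). The 3 stretches are shown because they hold the letters that ATF4 dimers are known to bind. Each is written 5′ to 3′ on the gene's strand, with the match in capitals.
Asns: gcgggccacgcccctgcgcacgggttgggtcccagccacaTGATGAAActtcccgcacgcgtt
Trib3: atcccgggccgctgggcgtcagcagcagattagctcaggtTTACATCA
Chac1: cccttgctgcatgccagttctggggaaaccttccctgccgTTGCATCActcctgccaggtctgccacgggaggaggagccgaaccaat
The Asns stretch is chr6:7693210-7693272 (minus strand), and its match runs from -23 to -16 relative to the start, counted from 1 at the first transcribed base and from -1 just before it. The Trib3 stretch is chr2:152344039-152344086 (minus strand), and its match, on the opposite strand, lies just after the start, from 15 to 22. The Chac1 stretch is chr2:119351009-119351096 (plus strand), with its match on the opposite strand from -193 to -186. The windows of Phgdh, Psat1, Psph, Atf4, Ddit3 and Sesn2 held no such letters, which says nothing about binding elsewhere. A match is a description of the letters and not of a bound site, and other motifs were not searched.

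Library totals ran from 12408749 to 18081487 counts, and levels are CPM, counts relative to the library total after TMM scaling, in which 3 counts of a library amount to 0.156 to 0.231 CPM. Map3k11 was still counted in KO libraries, at 5.59 ± 0.30 CPM (SD, n = 2) in liver and 8.70 ± 2.49 (n = 3) in tumours, against 11.4 ± 5.0 (n = 2) and 12.01 ± 2.39 (n = 3) in WT. A 3′ tag outside the deleted part does not check the knockout. Alb and the other hepatocyte markers were abundant in every library, but their sum was higher in WT tumours (76710 to 100300 CPM) than elsewhere (40210 to 54480 CPM). The 7 markers went both ways, 2 being called higher and 1 lower in WT tumours against WT liver. Alb, the largest, had means of 54560 CPM in WT tumours and 23270 in KO tumours, and Cps1 664.6 and 1079. KO tumour replicate 2 stood apart: its tumour markers Afp, Gpc3, Igf2 and H19 summed to 4.75 CPM, just under the 5.05 to 7.35 CPM of the livers. KO tumour replicates 1 and 3 had 2582 and 231.5 CPM and WT tumours 822.6 to 1598 CPM. The markers behind the sum went both ways between WT and KO tumours. The means in WT and KO tumours were 377.3 and 206.2 CPM for Afp and 466.7 and 32.08 for Gpc3. For Igf2 they were 5.346 and 31.72, and for H19 381.7 and 669.7. Mitochondrial transcripts took 7.21% to 7.72% of liver counts, 4.03% to 5.10% of WT tumour counts and 6.45% to 8.44% of KO tumour counts. Summed neutrophil markers ran from 11.3 to 22.6 CPM in livers, 53.5 to 212 in WT tumours and 17.8 to 194 in KO tumours, and macrophage markers from 301 to 523, 454 to 682 and 470.3 to 659. In tissue RNA, fewer cells of a type and less RNA per cell cannot be told apart.

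The group mean was highest in WT tumours for 8 of the 9 genes, Chac1 being highest in KO liver. Phgdh is among the 8 but passed the filter only through WT tumours, so its order is no support. The share of all genes with this order was not computed. WT liver had the lowest mean for 4 genes, KO liver for 3 and KO tumours for 2, with Phgdh, at 0 counts in all livers, placed under KO liver.

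**Figure D1:**
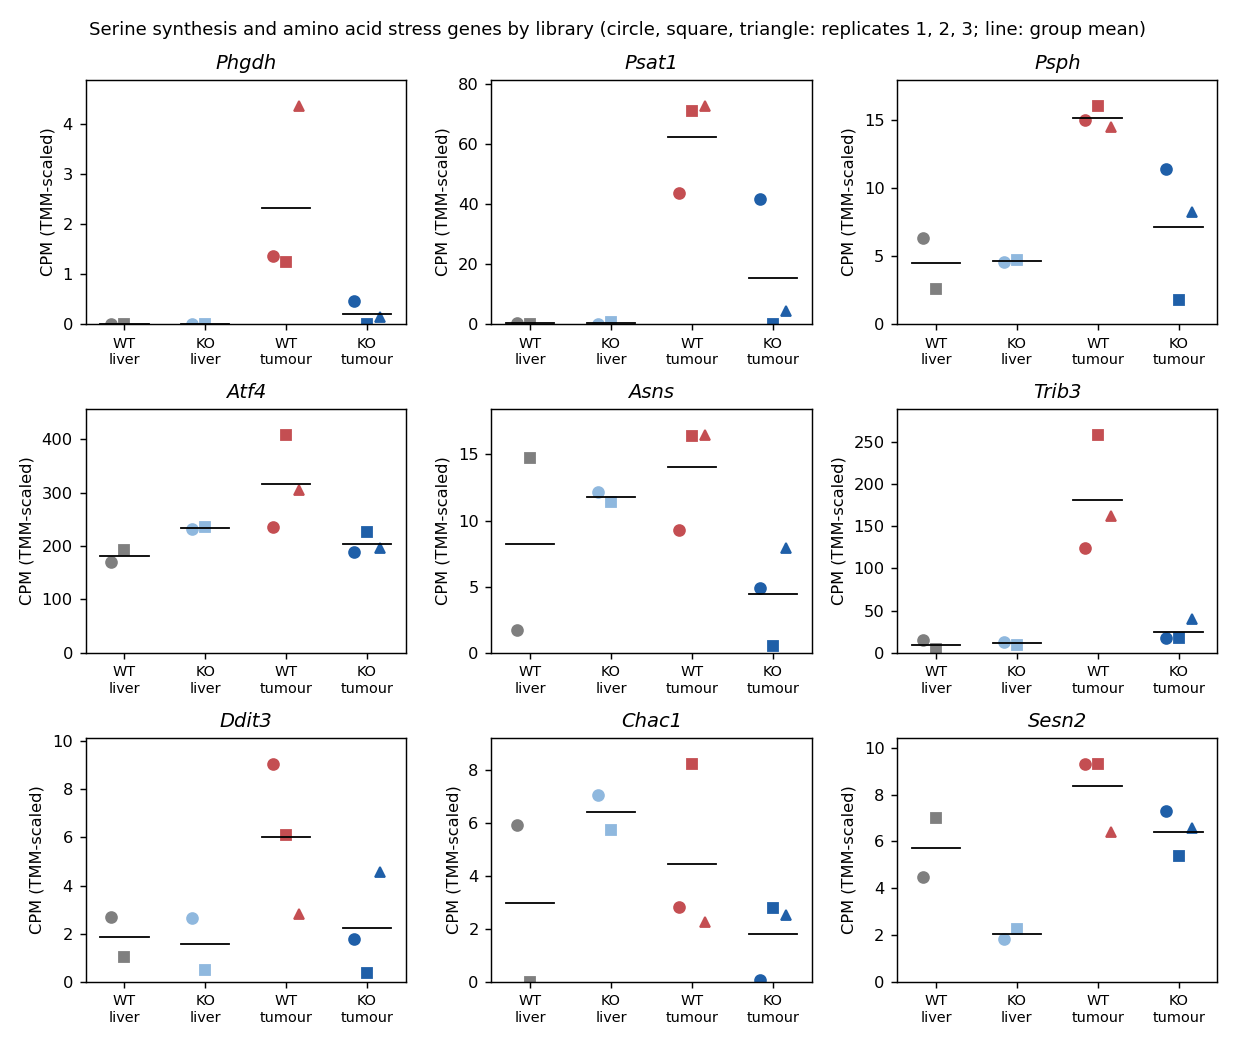
TMM-scaled CPM (y axis, from 0) of each of the 9 genes in each of the 10 libraries, grouped on the x axis as WT liver, KO liver, WT tumour and KO tumour. Circles, squares and triangles are replicates 1, 2 and 3 and the line is the group mean; Trib3 lies between 124.5 and 258 CPM in WT tumours and at 40.16 CPM or less elsewhere.

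Phgdh encodes phosphoglycerate dehydrogenase, the first enzyme of serine synthesis (ENSMUSG00000053398.11, chromosome 3, 98313170 to 98339990, minus strand, all positions being those of GENCODE M21 on GRCm38). No read was counted in any of the 4 liver libraries. WT tumours had 26, 17 and 68 counts (1.35, 1.24 and 4.36 CPM), and KO tumours 6, 0 and 2 counts. Each WT tumour thus lay above every other library, at a mean of 2.32 ± 1.77 CPM (n = 3), at least 12.3-fold higher than WT liver when each liver library is given 3 counts. At these counts the difference did not pass edgeR's quasi-likelihood test with Benjamini-Hochberg adjustment over all tested genes (adjusted p = 0.16). The KO tumour mean, 0.20 ± 0.24 CPM (n = 3), was near the level of 3 counts.

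Psat1, phosphoserine aminotransferase, the second enzyme (ENSMUSG00000024640.9, chromosome 19, 15904678 to 15947337, minus strand), was close to absent in liver and well expressed in WT tumours. WT livers gave 5 and 2 counts, KO livers 0 and 10, WT tumours 839, 975 and 1134, and KO tumours 541, 1 and 58. On the CPM scale WT tumours had 43.7, 71.0 and 72.8, a mean of 62.5 ± 16.3 (n = 3), and WT liver 0.22 ± 0.13 (n = 2). KO tumours spread over the whole range, with 41.7 CPM in replicate 1, 0.0698 in replicate 2 and 4.18 in replicate 3. Replicate 1 thus came close to the lowest WT tumour, while replicate 2 lay at the level of liver. Afp, an oncofetal protein of liver tumours, had the same order in these 3 libraries (446.3, 3.84 and 168.5 CPM). The tumour marker Gpc3 was also lowest in replicate 2 but alike in replicates 1 and 3 (46.9, 0.489 and 48.9 CPM), and whether either bears on the Psat1 levels was not tested. Reads of Psat1 could be shared with the antisense gene Gm3329, since the sources used here do not give the strand setting of the counting.

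Psph, phosphoserine phosphatase, which completes serine synthesis (ENSMUSG00000029446.14, chromosome 5, 129765558 to 129787449, minus strand), was present in every library. WT liver had 6.35 and 2.59 CPM and KO liver 4.58 and 4.67. WT tumours lay close together at 15.0, 16.0 and 14.5 CPM, and KO tumours at 11.4, 1.75 and 8.22. All 3 WT tumours exceeded all other libraries, and the lowest library of all was KO tumour replicate 2. Psph overlaps Cct6a on the opposite strand.

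Atf4, the transcription factor of the response (ENSMUSG00000042406.7, chromosome 15, 80255184 to 80257541, plus strand), was abundant in every group, with 2447 to 5605 counts per library. WT liver had 169 and 192 CPM, KO liver 231 and 235, WT tumours 236, 408 and 305, and KO tumours 189, 226 and 196. The WT tumours were therefore all above both WT livers, while the KO tumours were all below both KO livers. Of the 9 genes Atf4 varied least over the 10 libraries, with an SD of 0.37 on the log2 scale against 3.81 for Psat1. Since ATF4 is controlled mainly at translation, its messenger RNA does not show the level of the protein.

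Trib3, a pseudokinase that binds AKT and holds ATF4 activity in check (ENSMUSG00000032715.9, chromosome 2, 152337422 to 152344032, minus strand), separated WT tumours from all other libraries. WT livers had 14.9 and 4.67 CPM and KO livers 12.9 and 9.28. WT tumours had 124.5, 258 and 161 CPM, and KO tumours 17.1, 17.2 and 40.2. The lowest WT tumour was well above the highest KO tumour, and the lowest KO tumour above the highest KO liver.

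Asns, asparagine synthetase (ENSMUSG00000029752.12, chromosome 6, 7675169 to 7693254, minus strand), differed more between the 2 WT livers than between any 2 group means. WT liver had 1.76 and 14.7 CPM, KO liver 12.2 and 11.4, WT tumours 9.32, 16.4 and 16.5, and KO tumours 4.93, 0.489 and 7.93. The KO tumours were below all KO livers and all WT tumours, while the WT groups overlapped.

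Ddit3, which encodes the stress-induced transcription factor CHOP (ENSMUSG00000025408.15, chromosome 10, 127290774 to 127296288, plus strand), was low throughout. WT livers had 2.70 and 1.01 CPM, KO livers 2.63 and 0.496, WT tumours 9.06, 6.12 and 2.82, and KO tumours 1.77, 0.349 and 4.54. WT tumours lay above WT liver, the lowest by a small margin, and overlapped with KO tumours. The locus holds a further Ddit3 entry on the same strand, with Mars and Gm4189 on the other, so its counts are uncertain.

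Chac1, an enzyme that breaks down glutathione (ENSMUSG00000027313.3, chromosome 2, 119351229 to 119354381, plus strand), had counts that jumped between libraries of a group. WT livers gave 94 and 0 counts, KO livers 123 and 81, WT tumours 54, 113 and 35, and KO tumours 1, 40 and 35. The KO livers, at 7.04 and 5.74 CPM, were both above all KO tumours, and the other groups overlapped.

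Sesn2, sestrin 2, a leucine sensor that restrains mTORC1 (ENSMUSG00000028893.8, chromosome 4, 132492032 to 132510501, minus strand), was lowest in KO liver. WT livers had 4.46 and 7.001 CPM, KO livers 1.83 and 2.27, WT tumours 9.32, 9.32 and 6.42, and KO tumours 7.32, 5.38 and 6.56. Tumours of the 2 genotypes overlapped, and Gm12981 overlaps the gene on the same strand.

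In WT tumours against WT liver, which shows the tumour and treatment difference in the presence of MLK3, 2 genes rose. The 8 genes other than Phgdh had fold changes above 0, as did 8486 of all 15811 tested genes. That direction did not hold in every fit with a library left out, Asns going down to -0.0654 and Chac1 to -0.419. Psat1 rose by 8.10 (SE 1.79) on the log2 scale, 274-fold (adjusted p = 0.0097), and Trib3 by 4.21 (SE 0.56), 18.5-fold (adjusted p = 0.00021). Psat1 had only 5 and 2 counts in the WT livers, so the size of its fold change is uncertain. Over all tested genes 3.64% were called higher and 4.7% lower. The Psat1 call rests partly on WT liver replicate 2: without it the value was 7.6 (adjusted p = 0.057). Trib3 was called in all 15 alternatives, but its size moved with the livers, to 3.6 without WT liver replicate 2 and 5.28 without WT liver replicate 1.

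Atf4 came next, with a log2 fold change of 0.81 (SE 0.24, adjusted p = 0.055), which DESeq2 called (adjusted p = 0.0094) and edgeR called without WT tumour replicate 1 (0.97, adjusted p = 0.024) or KO tumour replicate 2 (adjusted p = 0.044). Psph gave 1.76 (SE 0.74, adjusted p = 0.18), Ddit3 1.69 (SE 1.29, adjusted p = 0.49), Asns 0.77 (SE 0.91, adjusted p = 0.69), Chac1 0.58 (SE 1.52, adjusted p = 0.89) and Sesn2 0.54 (SE 0.66, adjusted p = 0.71). Phgdh is left out of the following counts and medians, since it passed the filter only through WT tumours. For 5 of the 8 others (Psat1, Psph, Atf4, Trib3 and Ddit3) the libraries of the 2 groups did not overlap, against 19.6% of all tested genes in that direction and 17.6% in the other. The median log2 fold change of the 8 genes was 1.25, and that of all tested genes 0.09. The genes were chosen with earlier results of these data known, so this share and median are no test of the set.

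**Figure D2:**
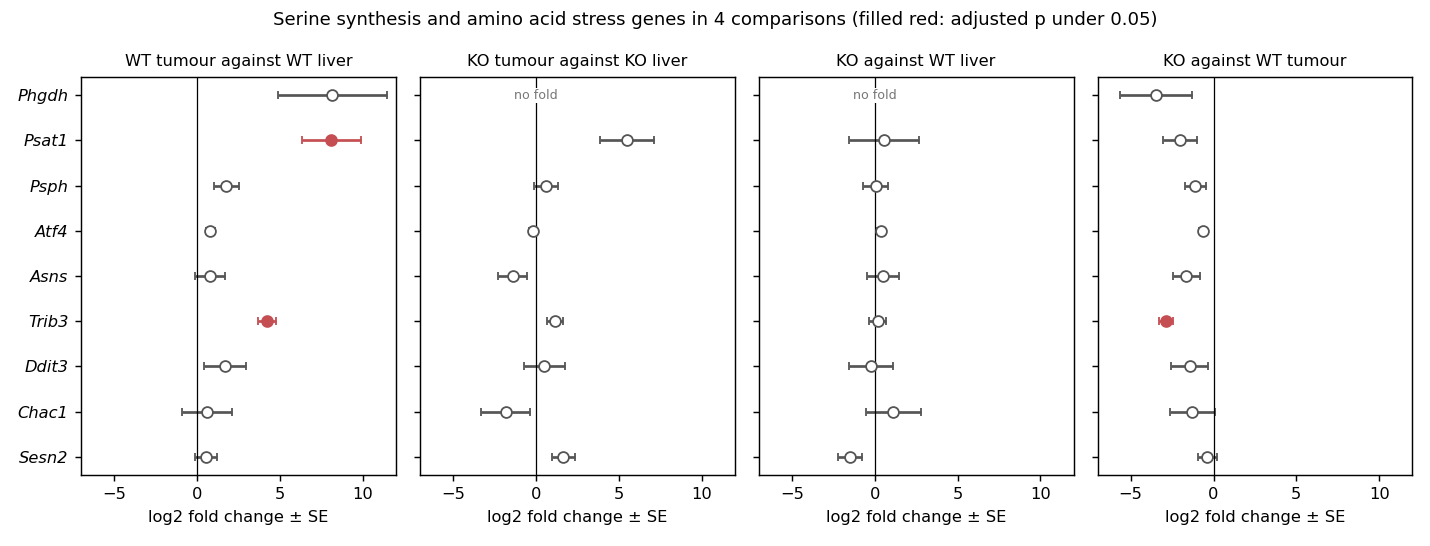
Log2 fold changes (x axis, with SE bars) of the 9 genes (y axis) in 4 comparisons, filled red where the adjusted p was under 0.05. Trib3 is filled in WT tumour against WT liver (4.21) and in KO against WT tumour (-2.87) and Psat1 in the former alone; the Phgdh value against the empty WT livers depends on the prior count, and "no fold" marks comparisons in which Phgdh was at or under the level of 3 counts in both groups.

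In KO tumours against KO liver, the same difference in mice without MLK3, edgeR called 0 of the 9 genes, and so did DESeq2, against 0.0759% of all tested genes called higher and 0% lower. At an unadjusted p under 0.05 there were 3 genes, Psat1, Trib3 and Sesn2. Psat1 had a log2 fold change of 5.50 (SE 1.62, adjusted p = 0.24), Trib3 of 1.16 (SE 0.49, adjusted p = 0.45) and Sesn2 of 1.65 (SE 0.70, adjusted p = 0.46). Without KO tumour replicate 2, the library with liver-like tumour markers, Psat1 gave 6.09 (adjusted p = 0.014) and was called, and Trib3 gave 1.37 (adjusted p = 0.30). Over all genes, leaving that library out took the calls from 12 higher and 0 lower to 189 and 13 of 15658 tested. Psat1 was not called with any other library left out, and its value went down to 2.65 (adjusted p = 0.76) without KO tumour replicate 1 and 4.42 (adjusted p = 0.45) without KO liver replicate 1. Without KO liver replicate 2 it was 10.9 (adjusted p = 0.27), a value that depends on the prior count because the remaining KO liver had 0 counts.

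The remaining genes went both ways between KO tumour and KO liver. Psph gave 0.62 (SE 0.71), Ddit3 0.50 (SE 1.24), Atf4 -0.19 (SE 0.24), Asns -1.41 (SE 0.88) and Chac1 -1.82 (SE 1.48), with adjusted p-values from 0.61 to 0.94. The libraries lay apart for 2 genes higher in tumours, Trib3 and Sesn2 (14.3% of all tested genes did so), and for 3 genes lower, Atf4, Asns and Chac1 (12.4%). For Asns the KO liver mean was 11.8 and the KO tumour mean 4.45 CPM, and for Chac1 6.39 and 1.80 CPM, neither past the test.

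Between KO and WT liver, which asks about the genotype without carcinogen, no gene passed edgeR's test, none had an unadjusted p under 0.05 and DESeq2 called 0; over all tested genes 0% were higher and 0.00632% lower. Atf4 was the gene with both KO livers above both WT livers (0.37, SE 0.26, adjusted p = 0.77), and Sesn2 the gene with both below (-1.48, SE 0.74, adjusted p = 0.70). Each direction was seen in 15.5% of all tested genes. Psat1 gave 0.57 (SE 2.11), Trib3 0.18 (SE 0.52) and Asns 0.52 (SE 0.97), so with 2 livers per genotype differences of several fold were not detectable for the lower genes.

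In KO against WT tumours, which asks about the genotype in tumours, the 8 genes other than Phgdh had fold changes below 0. Over all tested genes 8137 of 15811 did so. The 1 gene called was Trib3, which fell. Its mean was 181 ± 69 CPM (n = 3) in WT and 24.8 ± 13.3 (n = 3) in KO tumours, a log2 fold change of -2.87 (SE 0.44, adjusted p = 0.00098), 7.30-fold lower. Over all tested genes 1.27% were called lower and 3.25% higher. The Trib3 difference was -2.66 (adjusted p = 0.0084) without KO tumour replicate 2, and it passed the test in all 15 alternatives.

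The serine synthesis genes were lower in KO tumours by point estimate, none past the test. Phgdh, which passed the filter only through WT tumours, gave -3.47 (SE 2.18, adjusted p = 0.52). Psat1 gave -2.03 (SE 1.04, adjusted p = 0.38) and Psph -1.09 (SE 0.63, adjusted p = 0.46). These values moved with single libraries: Psat1 gave -1.45 (adjusted p = 0.52) without KO tumour replicate 2, and -4.88 (adjusted p = 0.018) without KO tumour replicate 1. The KO tumour mean of Psat1 was 15.3 CPM with replicate 2 and 22.9 without it, and that of Psph 7.12 and 9.81 CPM.

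Of the stress genes, Atf4 had a log2 fold change of -0.64 (SE 0.21, adjusted p = 0.13), which DESeq2 called (-0.66, adjusted p = 0.040). Asns gave -1.66 (SE 0.82, adjusted p = 0.36), Ddit3 -1.43 (SE 1.11, adjusted p = 0.65), Chac1 -1.29 (SE 1.36, adjusted p = 0.79) and Sesn2 -0.38 (SE 0.59, adjusted p = 0.89). For 5 of the 8 genes other than Phgdh (Psat1, Psph, Atf4, Asns and Trib3) every KO tumour was below every WT tumour, against 10.9% of all tested genes in that direction and 12.2% in the other. The median of these 8 log2 fold changes was -1.36, and that of all tested genes -0.03. The choice of genes with earlier results known limits this share and median too. This comparison shares its WT tumours with WT tumour against WT liver, so their values do not count as separate evidence. WT tumours also had more summed tumour marker than KO tumour replicates 2 and 3, and a lower mitochondrial share than all KO tumours. Their summed hepatocyte markers were higher, at 76710 to 100300 CPM against 40210 to 49420 in KO tumours. The part of any of these in the values above was not tested.

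Whether the tumour difference itself depended on genotype was tested as the interaction, (KO tumour minus KO liver) minus (WT tumour minus WT liver). Trib3 differed, with -3.05 (SE 0.68, adjusted p = 0.033), and it was the 1 gene of the 9 past the test; 0.367% of all tested genes were called in that direction and 1.22% in the other. That call ended when any of 6 single libraries was left out (WT liver 2, KO liver 1, WT tumours 2 and 3, KO tumours 1 and 2), with values from -2.44 to -3.09 and adjusted p from 0.064 to 0.096. Atf4 gave -1.002 (SE 0.34, adjusted p = 0.20), Asns -2.18 (SE 1.27, adjusted p = 0.52), Psat1 -2.60 (SE 2.37, adjusted p = 0.73) and Sesn2 1.10 (SE 0.93, adjusted p = 0.71). Phgdh has no interaction value because its mean lay at or under the level of 3 counts in 3 of the 4 groups.

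Lists of related genes place the 9 in their pathway. Of the enzymes that use serine, glycine and one-carbon units (33 genes, 32 tested), 11 fell in WT tumours against WT liver (34.4%, against 4.7% of all tested genes). A further 2 rose (6.25%, against 3.64%), and the list median was -0.46 on the log2 scale. The methionine cycle enzyme Bhmt, betaine-homocysteine methyltransferase, went from 1514 and 1760 CPM in the WT livers down to 92.1, 111 and 131 in the tumours, a log2 fold change of -3.88 (SE 0.27, adjusted p = 3.8e-07). Gnmt, glycine N-methyltransferase, changed by -3.33 (adjusted p = 6.1e-06), Cth, which makes cysteine from cystathionine, by -2.29 (adjusted p = 0.00013), and Aldh1l1, a cytosolic folate enzyme, by -1.89 (adjusted p = 0.00015). The increases were in Mthfd1l, a mitochondrial formate-producing enzyme (8.10, SE 1.33, adjusted p = 0.0012), and Sptlc2, a subunit of serine palmitoyltransferase (1.48, SE 0.36, adjusted p = 0.019). Mthfd1l had only 4 and 0 counts in the WT livers, so the size of its fold change is uncertain. The Sptlc2 call ended, leaving 1 increase, without either WT liver or WT tumour 2 or 3 (adjusted p up to 0.12).

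In KO against WT tumours 9 of these 32 genes were higher (28.1%, against 3.25% of all tested genes) and 1 lower (3.12%, against 1.27%). Without KO tumour replicate 2 these were 6 and 0, and the calls over all genes went from 514 and 201 to 345 and 114. Bhmt was at 653, 676 and 400 CPM in KO tumours, each above every WT tumour (2.37 on the log2 scale, SE 0.24, adjusted p = 2.6e-05), and Gnmt (2.45), Cth (1.65) and Aldh1l1 (1.33) were called too, with adjusted p of 6.4e-05, 0.0013 and 0.0019. Mthfd1l was the lower gene (-3.93, SE 0.85, adjusted p = 0.013, but up to 0.11 without WT tumour 2 or KO tumour 2 or 3), with 27.3, 57.5 and 25.6 CPM in WT and 4.70, 1.33 and 1.23 in KO tumours. In KO tumours against KO liver edgeR called 0 of the 32, where it called 0.0759% of all tested genes higher and 0% lower. At an unadjusted p under 0.05 there were 7, against 1520 of all 15811 tested genes. DESeq2 called 1 higher and 1 lower, against 385 and 42 over all genes.

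**Figure D3:**
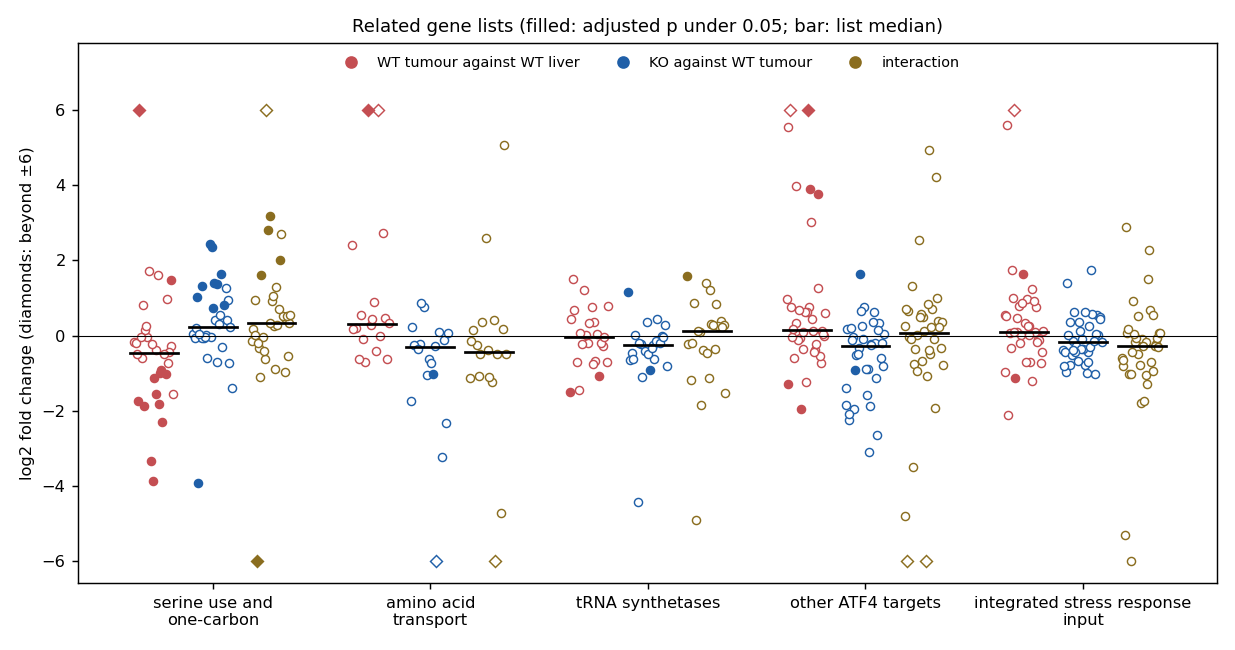
Log2 fold changes (y axis) of the tested genes of the 5 related lists (x axis) in WT tumour against WT liver (red), KO against WT tumour (blue) and the interaction (brown); filled symbols have an adjusted p under 0.05, bars are list medians and diamonds lie beyond 6 in either direction. In the serine use list 11 red symbols are filled below 0 and 9 blue symbols above 0, while few are filled in the other lists.

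Of the amino acid transporters (20 genes, 18 tested) 1 rose in WT tumours (5.56%, against 3.64% of all tested genes). This was Slc7a11, the cystine-glutamate exchanger and a known ATF4 target, with 3 and 0 counts in the WT livers and 18.3, 66.7 and 12.4 CPM in the tumours (8.31, SE 2.33, adjusted p = 0.042), a call that ended when any 1 of the 5 WT libraries was left out (adjusted p from 0.057 to 0.16). Like Phgdh, Slc7a11 (0 counts in both KO livers) and Slc7a3 (24, 20 and 0 counts in WT tumours, 0 elsewhere) passed the low-count filter only through WT tumours. Neither therefore counts as support for a rise there. In KO tumours Slc7a11 had 46.8, 0.0698 and 0.577 CPM, so that, as with Psat1, replicate 1 was near the WT tumours and replicate 2 near liver. Its partner chain Slc3a2 was lower in KO than in WT tumours (-1.01, SE 0.27, adjusted p = 0.045), which did not hold without WT tumour 2 or 3 or KO tumour 2 or 3 (adjusted p up to 0.22).

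ATF4 is known to induce many tRNA synthetases. Of that list (23 genes, all tested) edgeR called 0 higher in WT tumours against WT liver, near the 3.64% of all tested genes. DESeq2 also called 0, against 1265 over all genes. By edgeR 2 were lower (8.7%, against 4.7% of all tested genes). In either direction 5 had an unadjusted p under 0.05, against 3388 of all 15811 tested genes. Aars, alanyl-tRNA synthetase, fell from 85.9 and 91.9 CPM in the WT livers to 30.1, 30.6 and 33.2 in the tumours (-1.51, SE 0.22, adjusted p = 0.00042), and KO tumours, at 61.3, 75.0 and 75.0 CPM, were above every WT tumour (1.17, SE 0.20, adjusted p = 0.0025). Tars was also lower in WT tumours than in liver (-1.07, adjusted p = 0.0074, but 0.11 without WT liver 1), and Gars lower in KO than in WT tumours (-0.91, adjusted p = 0.046, but up to 0.19 without WT tumour 2 or 3 or any 1 KO tumour).

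Among 37 other known ATF4 targets (36 tested), 3 rose (8.33%, against 3.64% of all tested genes) and 2 fell (5.56%, against 4.7%) in WT tumours, and the median was 0.15 on the log2 scale. Nupr1, a stress-induced chromatin protein, was at 1.32 and 0.883 CPM in the WT livers, 12.5, 26.4 and 11.2 in the WT tumours, and 0.848, 0.489 and 4.47 in the KO tumours (WT tumour against liver 3.91, SE 1.06, adjusted p = 0.031, but up to 0.16 without any 1 of the 5 WT libraries). Fgf21, a stress hormone of the liver, was at 1.13 and 0.757 CPM in the WT livers and 5.21, 16.2 and 17.4 in the tumours (3.77, SE 1.00, adjusted p = 0.031, but up to 0.15 without either WT liver or WT tumour 2 or 3). Tnfrsf10b, a death receptor, was at 0 counts in both WT livers and had 63, 169 and 96 counts in the tumours, at least 38.4-fold higher with 3 counts per liver library (adjusted p = 0.035, but up to 0.13 without any 1 of the 5 WT libraries or KO tumour 1 or 3). The decreases were in Got1, cytosolic aspartate aminotransferase (-1.29, adjusted p = 0.0048), and Nars2, a mitochondrial tRNA synthetase (-1.96, adjusted p = 0.018, but up to 0.13 without WT liver 2 or WT tumour 2 or 3).

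In KO against WT tumours Atf5, a relative of ATF4 with similar translational control, was lower, at 385, 379 and 357.5 CPM against 677, 725 and 734 (-0.93, SE 0.20, adjusted p = 0.012, but up to 0.070 without WT tumour 3 or KO tumour 3), and Nars2 was higher (1.64, adjusted p = 0.047, lost in 6 of the 10 fits with a library left out). Of this list edgeR thus called 1 gene lower (2.78%, against 1.27% of all tested genes) and 1 higher (2.78%, against 3.25%). DESeq2 called 4 lower, while its lower calls over all genes were 393 where edgeR had 201. The share of promoters with the TGATGNAA letters was 29.0% in this list (9 of the 31 genes with a window), against 4.51% of all genes with a window. It was 31.2% for the tRNA synthetases (5 of 16) and 21.4% for the transporters (3 of 14). The serine use list had 0 of 26, and the upstream genes described below 1 of 30 (3.33%).

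Upstream genes of the response (37 genes, all tested) included the eIF2 kinases, eIF2B subunits and mTORC1 regulators. They had 1 rise and 1 fall in WT tumours, 2.70% each, against 3.64% and 4.7% of all tested genes. Dele1, which relays mitochondrial stress to an eIF2 kinase, rose from 4.27 and 5.87 CPM to 15.6, 18.4 and 13.7 (1.64, SE 0.42, adjusted p = 0.024, but up to 0.16 without either WT liver or WT tumour 2), while KO livers had 15.9 and 17.1 CPM. Eif2b4, a subunit of the eIF2 exchange factor, was lower (-1.13, adjusted p = 0.014, but 0.23 without WT liver 1).

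**Figure D4:**
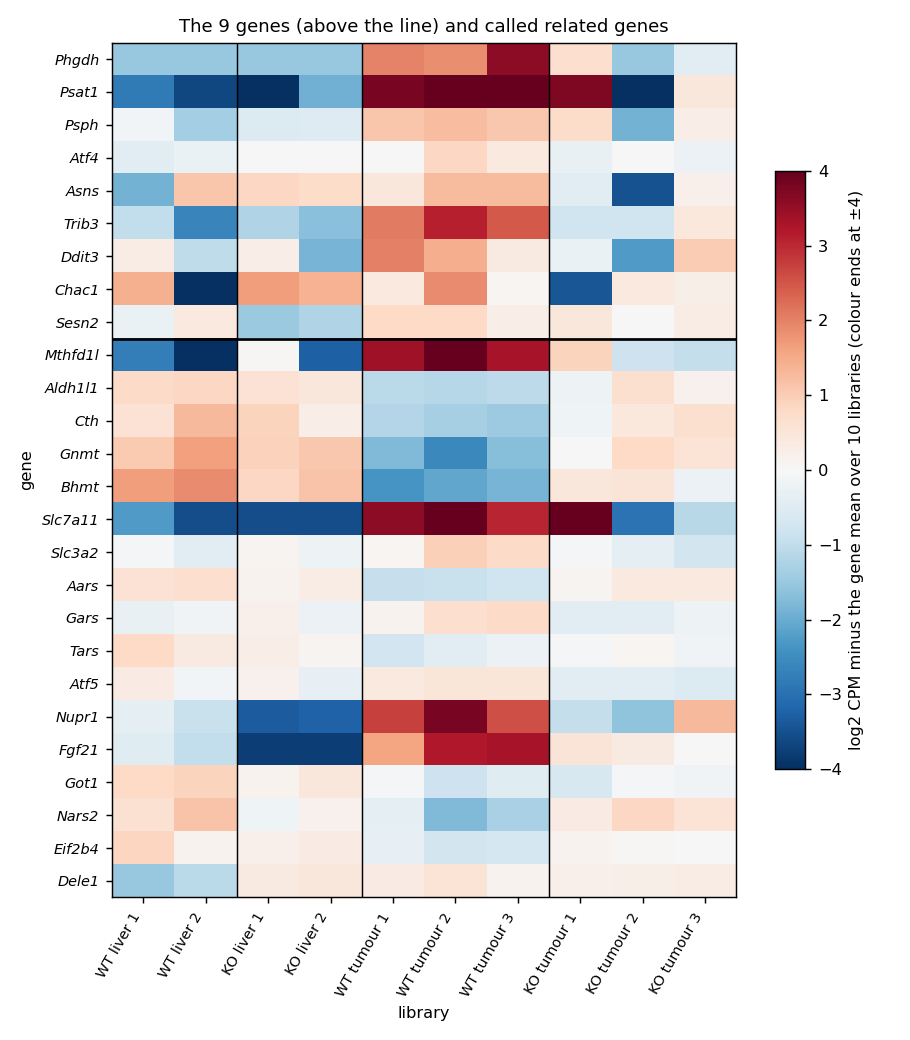
Log2 CPM minus the gene's mean over the 10 libraries (colour, ends at 4 in either direction) for the 9 genes above the line and called genes of the related lists below it (y axis), by library (x axis). The 3 WT tumour columns are red for Psat1, Trib3, Mthfd1l and Slc7a11 and blue for Bhmt, Gnmt, Cth and Aldh1l1, and among KO tumours replicate 1 alone is deep red for Psat1 and Slc7a11.

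The 9 profiles over the 10 libraries differed from each other. As a measure of likeness the root mean square difference of log2 CPM, each gene centred on its own mean, was taken over the 10 libraries. The closest pair was Atf4 and Sesn2 (0.74), followed by Psph and Ddit3 (0.76) and by Phgdh and Trib3 (0.89), and Psat1 and Chac1 were the farthest apart (4.21). Small values also come from genes that vary little, which holds for Atf4 and Sesn2. The Phgdh profile had 1 and the same value, set by the prior count of 2, in all livers and KO tumour replicate 2. Its likeness values therefore say little. Among all genes with a mean of at least 10 CPM, Trib3 was nearest to Mfge8 (0.62), Ccn2 (0.63) and Tstd1 (0.64), and Psat1 to Cpe (0.81), Tceal5 (0.85) and Igdcc4 (0.87). Phgdh was nearest to Lpl (0.47), Psph to Tnfrsf21 (0.35), Atf4 to Josd1 (0.13), Asns to Pir (0.87), Ddit3 to Sowahb (0.69), Chac1 to Slc23a2 (1.27) and Sesn2 to Erlec1 (0.26).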

How the data were processed

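The authors deposited 1 table that holds the read count of each gene in each library as whole numbers, not normalized, from libraries made with a strand-specific QuantSeq 3′ forward kit and 50 ng of total RNA, per the labels' protocols. BWA, featureCounts and the build mm10 are named in the submitters' processing notes. The sources used here do not give their versions, the annotation, the strand setting or how multi-mapped reads were handled. No molecular identifiers are mentioned, so counts are reads and limits from counts cover counting error only.

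Columns were matched to samples by library name, with 0 per-sample columns unused. Symbols matched 38872 identifiers and not 184. Genes were kept by filterByExpr (15811), scaled by TMM, and fitted in R 4.3.3 with edgeR 4.0.16 in 1 quasi-likelihood model over all 10 libraries, with 1 term for each group (6 residual and 8.78 prior degrees of freedom). A gene was called when its p, adjusted by Benjamini-Hochberg over all tested genes of a contrast, was under 0.05. The code was tested on simulated data. Pairs of replicates gave a chi-square of 39.8 to 94.9 per degree of freedom, so none was counted as a duplicate.

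The 9 genes and the lists were chosen with earlier results of these data known. From each list and contrast the up to 4 called genes with the smallest p were named, or else the 2 smallest p. Sptlc2, Tnfrsf10b and Aldh1l1 in the interaction, and Mthfd1l outside it, were named after their values were seen. Alternatives were DESeq2 1.42.0, its size factors within edgeR, no filter on low counts, compared groups only, a replicate block, and each library left out in turn.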

Additional observations from a re-analysis of the deposited data

Results flagged for a closer look

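The following genes had a tumour-against-liver difference that differed between KO and WT mice by the test of that difference, edgeR's quasi-likelihood test of the interaction. Trib3 had an interaction log2 fold change of -3.05 (adjusted p = 0.033). Among serine use and one-carbon genes, Mthfd1l had -7.30 (adjusted p = 0.021), Bhmt 3.17 (adjusted p = 0.00025), Gnmt 2.81 (adjusted p = 0.0025), Cth 2.01 (adjusted p = 0.019) and Aldh1l1 1.61 (adjusted p = 0.026). Among tRNA synthetases, Aars had 1.58 (adjusted p = 0.016). Bhmt and Gnmt passed in all 14 alternatives. The other calls ended when single libraries were left out, any of 6 libraries for Trib3, 4 each for Mthfd1l, Aldh1l1 and Aars and 3 for Cth. The libraries were WT liver 2, KO livers 1 and 2 and KO tumour 3 for Aldh1l1 (adjusted p up to 0.11), and WT liver 2, KO liver 2 and KO tumour 3 for Cth (up to 0.098). Mthfd1l ranged from -11.3 to -4.08 over its alternatives, the value smallest in size being without KO liver 1. Its liver counts were 4 and 0 in WT and 45 and 2 in KO, so the size of its interaction rests on near-empty livers.

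Atf4 messenger RNA lay on opposite sides of the liver of the same genotype: all 3 WT tumours were above both WT livers and all 3 KO tumours below both KO livers. Over all tested genes 19.6% lay apart in the first way and 12.4% in the second. The KO difference was small by edgeR (-0.19, SE 0.24, adjusted p = 0.86), and the KO tumour mean (204 CPM) was above that of WT liver (181 CPM). The interaction was -1.002 (SE 0.34) and did not pass edgeR's test (adjusted p = 0.20).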

How the results depend on the processing

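Of the recomputed log2 fold changes of the 9 genes, 589 kept their direction and their side of the threshold, 14 reversed, 11 gained a call and 7 lost one. The count of genes higher in WT tumours, 2, was 4 by DESeq2 (with Phgdh, adjusted p = 0.022, and Atf4) and 1 to 3 with a library left out. The count higher in KO tumours against KO liver, 0, was 2 with no filter on low counts (Psat1 and Trib3) and 0 to 1 with a library left out. The count lower in KO than WT tumours, 1, was 2 with no filter (with Psat1), 2 by DESeq2 and 1 to 2 with a library left out. The count lower in the interaction, 1, was 0 to 1 with a library left out. Directions reversed only when single libraries were left out, and the cause was not tested. In WT tumours against liver Asns ranged from -0.0654 (without WT liver 1) to 2.99, and Chac1 from -0.419 (without WT liver 2; -0.257 without WT tumour 2) to 9.08, the last against the WT liver with 0 counts. In KO tumours against liver Ddit3 ranged from -0.563 (without KO tumour 3; -0.244 without KO liver 2) to 2.15. Between livers Psat1 ranged from -4.82 (without KO liver 2) to 1.64, Psph from -0.46 (without WT liver 2) to 0.833, Asns from -0.321 (without WT liver 1) to 2.73, Trib3 from -0.431 (without WT liver 2; -0.0871 without KO liver 1) to 1.25, and Ddit3 from -1.89 to 0.631 (without WT liver 1; 0.5 without KO liver 2). In the interaction Psat1 ranged from -5.45 to 2.79 (without KO liver 2) and Ddit3 from -2.25 to 0.461 (without KO liver 1). Where a group was left with 1 library, it was assumed to vary like the other groups. Same-numbered samples did not deviate together (correlations from -0.00615 to 0.0204), so numbers do not pair them. With the replicate block the 9 genes kept 2 calls higher in WT tumours and 1 lower in KO than WT tumours, while the other ATF4 targets higher in WT tumours went from 3 to 0. Over all genes the 575 calls higher and 743 lower in WT tumours became 1265 and 1103 by DESeq2 and 455 and 620 with the block. The 12 calls higher in KO tumours became 385, with 42 lower, by DESeq2. At these depths Phgdh, Ddit3 and Chac1 rest on 174 counts or fewer per library. Phgdh passed edgeR's filter only through WT tumours, so its DESeq2 call does not count as support for a rise there.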
